A study of Mus musculus with 9 samples.

Results

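This comparison sets triethyltin (TET) against saline in mouse macrophages that had first been primed with lipopolysaccharide (LPS). Its members are the 3 arrays titled for LPS with TET and the 3 arrays titled for LPS with saline, 6 of the 9 arrays of the series, chosen by their titles alone. The comparison covers 18193 genes, each read by 1 probe set. The other 3 arrays carry trimethyltin (TMT) and enter where TET is set against it.

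All macrophages were grown from bone marrow of C57BL6 mice aged 6 to 12 weeks in medium conditioned by L929 cells, a fibroblast line that secretes the macrophage growth factor M-CSF, and were used on day 6 in vitro after that medium had been withdrawn. Every group, saline included, received LPS at 33 ng/mL for 3 h, so the control is a primed macrophage and not a resting one. The cells were then exposed for 6 h to triethyltin bromide (TET Br, 10 µM), trimethyltin hydroxide (TMT OH, 1.25 µM) or sterile saline. Total RNA, 50 ng per sample, was amplified with random and oligo-dT priming chemistry (Nugen WT-Ovation Pico) and hybridised to whole-genome Affymetrix mouse arrays. The series design calls the 3 samples of a group biological replicates. No source used here says that they came from separate mice, so the p-values speak of the spread among these samples, which may be technical. RNA was taken from whole cultures, in which fewer cells of a type and less RNA per cell cannot be told apart.

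As background, triethyltin carries ethyl groups on a tin atom, and trimethyltin carries methyl groups. Both are lipophilic cations that bind neighbouring thiols on proteins and interfere with mitochondrial ATP synthesis, and triethyltin is known in neurotoxicology for the swelling of myelin. Cells meet misfolded protein in the cytosol with HSF1, a transcription factor that binds heat shock elements and switches on chaperone genes. They meet a shortage of amino acids, heme or folding capacity in the endoplasmic reticulum (ER) with kinases that phosphorylate eIF2α, slow translation in general and favour translation of the transcription factor ATF4. LPS acts through Toll-like receptor 4 and NF-kB to induce cytokine genes in macrophages.

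The promoter stretches below are shown because they come from chaperone and ATF4 target genes that rose under TET and that hold a match to the element their factor is known to bind. They are reference sequence from RefSeq (mouse build GRCm38.p6), written in the direction of transcription, each with 15 bases on either side of the match. Capitals mark a heat shock element in the first 4 (2 facing units, GAANNTTC) and a C/EBP-ATF response element in the last 2 (TGATGNAA, or its reverse complement).

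Hspb1: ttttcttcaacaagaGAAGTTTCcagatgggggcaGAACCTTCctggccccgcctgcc
Hspa1a: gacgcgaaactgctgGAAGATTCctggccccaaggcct
Hspd1: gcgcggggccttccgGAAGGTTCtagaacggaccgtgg
Hspe1: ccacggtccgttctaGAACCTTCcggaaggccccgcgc
Chac1: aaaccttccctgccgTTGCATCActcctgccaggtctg
Asns: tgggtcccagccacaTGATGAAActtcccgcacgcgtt

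The Hspb1 stretch (chr5:135887787-135887844, plus strand) starts 132 bases before the gene and holds 2 matches. The Hspa1a stretch (chr17:34972238-34972275, minus strand) starts 119 bases before its gene, and Hspa1b holds the identical letters at the same distance. Hspd1 and Hspe1 lie head to head and share chr1:55088049-55088086, so their lines are the 2 strands of 1 stretch. The Chac1 stretch is chr2:119351034-119351071 (plus strand) and the Asns stretch chr6:7693210-7693247 (minus strand). Both strands were searched over the 250 bases before each gene in the 14368 of 18193 genes with a promoter sequence. GAANNTTC was found in 6.6% of them and in 9 of 25 heat shock genes, of which 7 were among the 20 that rose and 2 among the 5 that did not. TGATGNAA was found in 2.83% of all genes with a promoter and in 8 of 20 ATF4 genes. Of these 8, 4 were among the 13 that rose and 4 among the 7 that did not. Among the 105 genes with a promoter that rose at least 8-fold, 6 held GAANNTTC (5.71%) and 3 held TGATGNAA (2.86%).

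The macrophage label was checked against defining markers. On the 6 arrays Csf1r, the receptor of M-CSF, read 14.03 to 14.27, Cd68, a macrophage lysosomal protein, 13.03 to 13.42, and Spi1, the myeloid transcription factor PU.1, 12.26 to 12.62. These and all values below are log2 signals after RMA, a difference of 1 is a 2-fold change, and differences are TET minus saline unless stated. The TET arrays stood apart from the rest. Their interquartile range was 3.45 to 3.55 over all probe sets, against 3.83 to 3.88 in saline and 3.78 to 3.86 under TMT, so their signals were squeezed towards the middle. Replicates also spread more, with a median SD per gene of 0.171 under TET against 0.0907 in saline. Control probe sets and a measure of background are not among the values used here. Where a group sits among the dimmest signals, its fold may be too small.

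TET changed the level of about as many genes upward as downward. By limma's moderated test on all 9 arrays, with p-values adjusted over all genes, 9247 of 18193 genes passed at an adjusted p under 0.05 (50.8%), of which 4982 rose (27.4%) and 4265 fell (23.4%). A gene that passed is called risen or fallen below. The 3 TET arrays lay all above the 3 saline arrays in 5921 genes (32.5%) and all below in 4755 (26.1%), so the groups did not overlap in 58.7% of genes. With 3 arrays on each side the smallest p that exact permutation allows is 0.1, so single genes rest on the shared estimate of spread. Large changes were more often rises, with 135 rises (0.742%) and 11 falls (0.0605%) of at least 8-fold, while at the 2-fold mark there were 1212 rises (6.66%) and 1304 falls (7.17%).

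The direction of small differences followed the brightness of the gene. Among the 9097 genes at or above the median level of 6.82, 23.6% rose and 41.3% fell, with a median difference of -0.19, and among the dimmer genes the median was 0.20. The pathway lists below consist mainly of genes at or above that level, called bright below, so their counts stand against these shares. The lists and their members were chosen with earlier results of these data known, so an excess over these shares is a description and not a test. When genes were cut into 10 equal bins by their saline signal, the median difference was 0.14 to 0.26 in the 5 dimmest bins and -0.36 to -0.18 in the 4 brightest. Over all genes the median was 0.09 as deposited, -0.03 after quantile normalization was applied again, -0.00 after cyclic loess and -0.02 after centring each array on its median. The split of risen to fallen genes moved with these scalings, to 3538 and 4157 with quantile, 3919 and 3693 with loess and 3419 and 5008 with centring. Counts in the lists below are therefore given after another scaling too where the split moved, and the part of the squeezed signal range in them was not tested. Genes that the naming rule gives and that are described below as risen or fallen kept their call and stayed within 1.5 times of their value under all alternatives of the processing that could give a value, apart from the demand for a 1.5-fold change, unless the paragraph says otherwise. For Aars, Asns, Atf4, Cdc6, Cdk4, Clk4, Cxcl1, Dnaja3, Eif2ak4, Elmod3, Fkbp4, Flcn, Gabarapl1, Gar1, Gcg, Gnl3, H2-Aa, Hamp, Hif1a, Hk3, Hspa1b, Hspa5, Hspb1, Hspe1, Hsph1, Idh1, Idi1, Il18bp, Il1b, Irf1, Irf9, Jdp2, Lamp1, Lrrc8d, Mcl1, Mrps17, Nbr1, Nfkbie, Nr1h3, Pdk1, Phgdh, Poglut3, Pparg, Sars, Slc1a4, Slc7a7, Spic, Srebf1, Srsf5, Srsf6, Ticam1, Trib3, Tuba1a and Xbp1 the probe set read may also bind related transcripts. By the type of probe set these can be transcripts of other genes or alternative transcripts of the same gene. Their values are therefore less certain as to the gene or the transcript.

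**Figure D1:**
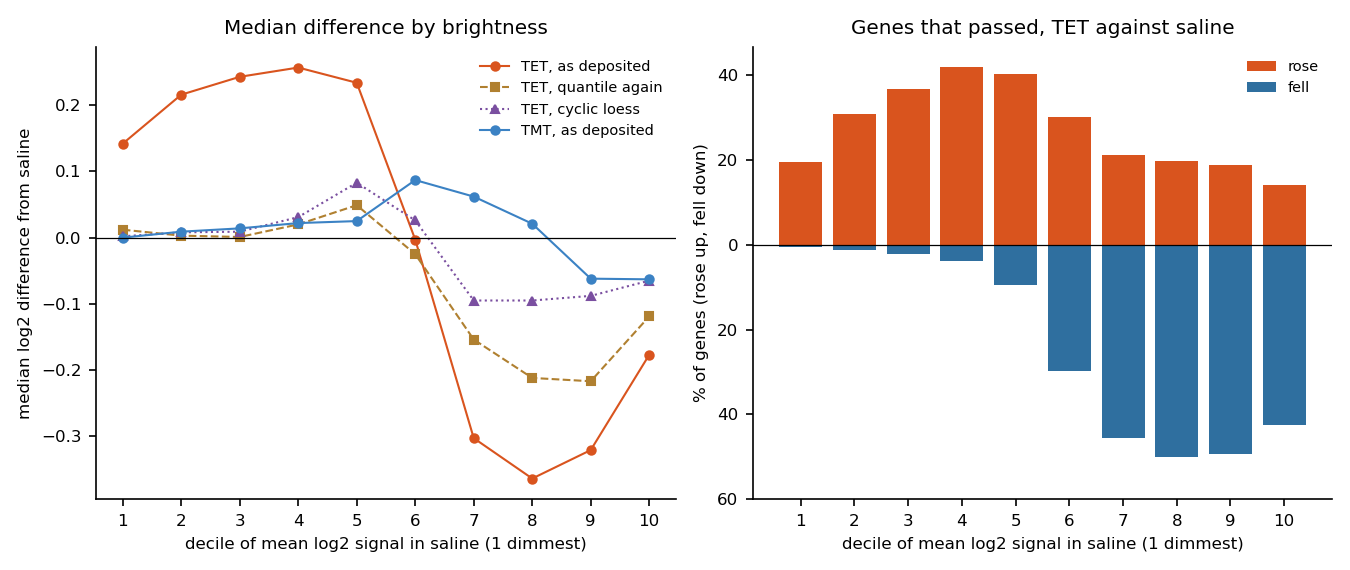
Left, median log2 difference from saline in 10 equal bins of genes ordered by mean signal in saline, for TET as deposited, after quantile normalization and after cyclic loess, and for TMT as deposited. Right, percent of genes in each bin that rose (above 0) or fell (below 0) under TET. The TET medians run from 0.26 in bin 4 to -0.36 in bin 8, where 50.1% of the genes fell.

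The largest rises brought dim genes to high signals. Ccnf, which encodes cyclin F, the substrate receptor of a ubiquitin ligase, read 4.79, 4.70 and 4.90 on the saline arrays and 10.35, 10.80 and 10.78 on the TET arrays. Its TET arrays lay more than 5 units above its saline arrays, and the difference was 5.85 (SE 0.14, 57.7-fold, adjusted p = 2.18e-09). Cxcr4, the receptor of the chemokine CXCL12, read 7.91, 8.02 and 7.68 on the saline arrays and 12.95, 13.05 and 13.09 on the TET arrays. It was already well within the signal range in saline, and rose by 5.16 (SE 0.10), with no overlap between the groups. Hspa1l, a chaperone gene of the HSP70 family best known from testis, read 4.89, 5.12 and 5.05 on the saline arrays and 10.19, 10.49 and 10.54 on the TET arrays (difference 5.39, SE 0.12). The other rises among the 15 largest were those of 2010320O07Rik, 1700017B05Rik, B230217O12Rik, Plcxd2 (a phospholipase C-like protein), Mgam (maltase-glucoamylase, a gut enzyme), Mospd4, Hspb1, Noxred1, Myh3 (embryonic muscle myosin), Map2k3os, Elmod3 and Gcg (proglucagon). Their differences ran from 5.02 for Gcg to 6.04 for 2010320O07Rik, and those of Hspb1, Elmod3 and Gcg rest on probe sets that may bind related transcripts. As the mean over its 3 probe sets, 1700017B05Rik rose by 3.25.

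Some dim genes reached the level of bright ones. In 27 genes the mean went from the dimmest 3639 saline signals (up to 4.71) to the median level or above, and in 2, Chil3 and Poglut3, it went the other way (Poglut3 is named after its values were seen). Mgam, for example, read 3.42, 3.51 and 3.20 on the saline arrays and 9.18, 8.40 and 9.14 on the TET arrays. Of the 66 genes that rose at least 8-fold and have several probe sets, all probe sets rose in 56 and none fell in any. Of 5045 genes with several probe sets that passed at any size, 521 had another probe set called in the opposite direction.

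The largest falls included regulators of signalling and a protein tied to tin. Dusp2, a phosphatase that switches off MAP kinases in activated immune cells, read 12.73, 12.66 and 12.70 on the saline arrays and 8.76, 8.95 and 9.04 on the TET arrays. The groups were far apart, and the fall was 3.78 (SE 0.13, 13.7-fold, adjusted p = 1.57e-08). Snn encodes stannin, a small mitochondrial membrane protein named for its link to cells sensitive to trimethyltin, and it read 10.53, 10.43 and 10.50 on the saline arrays and 7.32, 7.34 and 7.37 on the TET arrays. Both of its probe sets fell, the one shown by 3.15 (SE 0.079, adjusted p = 2.96e-09), and under TMT it differed from saline by -2.12. Lpcat1, which re-acylates lysophosphatidylcholine, had the deepest fall (-4.84, SE 0.24). Of its 5 probe sets 4 fell, and the mean over all 5 fell by 1.95.

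Other regulators were among the deep falls. Gfi1, a repressor in blood cell development, read 9.89, 9.73 and 9.79 on the saline arrays and 6.70, 6.24 and 6.79 on the TET arrays, and all 3 TET arrays were at least 2 units below the lowest saline array. Sema4c (a semaphorin) fell by 3.57, Rnd1 by 3.16, Zfp217 (a zinc finger corepressor) by 3.00, Prmt6 (an arginine methyltransferase) by 3.15, and Chil3 (the chitinase-like protein Ym1) by 3.27. Nxpe3, Zbtb8a, Heca, Clec2d, Mycl and Pfas completed the 15, with falls of 2.90 (Pfas, a purine synthesis enzyme) to 3.03 (Nxpe3). As means over their probe sets Prmt6 fell by 2.02, Nxpe3 by 1.52 and Mycl by 1.60. Without moderation and with a spread per group, Pfas did not pass (adjusted p = 0.0814).

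**Figure D2:**
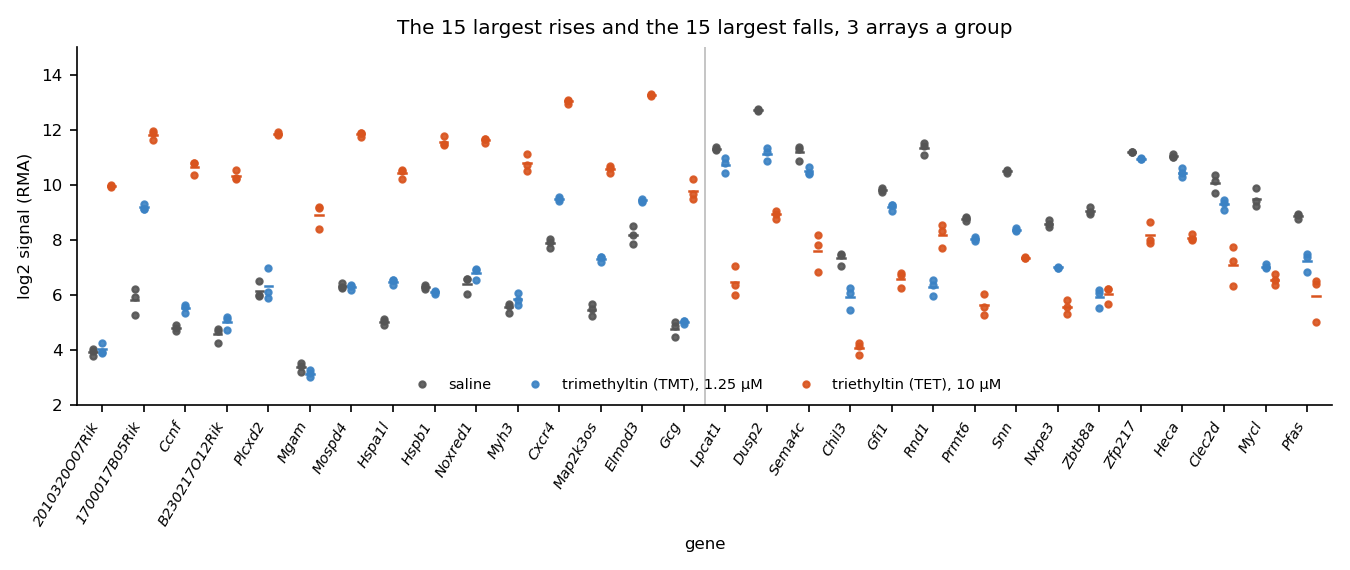
Log2 signal of the 15 genes with the largest rises (left of the line) and the 15 with the largest falls (right) under TET. Points are arrays, 3 a group, and short bars are group means. In each gene the 3 TET points lie outside the range of the 3 saline points, and the TET mean of Cxcr4 is 13.03 against 7.87 in saline.

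Chaperone genes of the heat shock response rose. Of 28 measured genes of the HSF1 list, 24 of them bright, 21 rose and 2 fell. The share of 75% risen stood against 27.4% of all genes and 23.6% of bright genes. The list median was 0.76 against 0.09 over all genes and -0.19 over bright genes (0.94 after loess, with 19 risen and 1 fallen). Hspb1, the small heat shock protein HSP25 that holds unfolded proteins, read 6.29, 6.34 and 6.20 on the saline arrays and 11.49, 11.43 and 11.77 on the TET arrays. Hspa1a, the stress-induced HSP70, read 10.31, 10.53 and 10.39 on the saline arrays and 14.11, 14.00 and 14.11 on the TET arrays. The TET arrays of both genes lay above all their saline arrays. Hspa1a rose by 3.67 (SE 0.10, 12.7-fold, adjusted p = 5.06e-09). Its near copy Hspa1b, whose transcript cannot be fully separated from it, rose by 2.31 (SE 0.12) and by 3.55 as the mean over its 3 probe sets. In a probe set of Hspa1b whose type is not marked as binding relatives the rise was 4.24.

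Partners of HSP70 and HSP90 rose as well. Hsph1 (HSP110, which recharges HSP70 with ATP) read 10.26, 10.34 and 10.38 on the saline arrays and 13.61, 13.67 and 13.79 on the TET arrays, a difference of 3.36 (SE 0.089). Bag3 (a co-chaperone that sends clients to autophagy) rose by 2.87 (SE 0.12), and Hsp90aa1 (the inducible HSP90) by 1.45 (SE 0.085). Dedd2, a death effector domain protein on the list, rose by 3.73 (SE 0.18). Dnajb1, the HSP40 that loads HSP70, read 11.47, 11.35 and 11.44 on the saline arrays and 12.19, 12.27 and 12.52 on the TET arrays, and rose by 0.91 (SE 0.11). That was the smallest rise of these 5 genes, and the groups again did not overlap. The 2 members that fell were Fkbp4 and Stip1, cochaperones of HSP90. Fkbp4 fell by 1.03 in its brightest probe set, while 1 of its 3 probe sets rose, the mean over them was -0.04 (adjusted p = 0.721), the call was lost without moderation and with a spread per group (0.133), and without those that may bind relatives the value was 0.88. Stip1 fell by 0.55 (adjusted p = 0.0227), a call lost after loess (adjusted p = 0.18), after quantile normalization (adjusted p = 0.0745), without moderation and with a spread per group (0.128), against a 1.2-fold change (0.176) and without saline replicate 1 or 3 or TET replicate 1, which left 1 fallen gene on the list.

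Few genes of the folding machine for tubulin and actin passed. Of 14 measured genes of the CCT chaperonin and prefoldin, 2 rose (14.3%) and 3 fell (21.4%), both below the 23.6% and 41.3% of bright genes. The median was -0.10 (3 and 1 after loess, 1 and 5 with arrays centred). Without saline replicate 2, 1 rose and 1 fell, and 1 rose without saline replicate 1 or TET replicate 2. Tcp1, a CCT subunit, read 12.74, 12.64 and 12.70 on the saline arrays and 12.47, 12.55 and 12.72 on the TET arrays, and the groups differed by -0.11 (adjusted p = 0.371).

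In mitochondria the chaperonin rose while other members of the list fell. Hspd1, the mitochondrial HSP60, read 11.54, 11.32 and 11.34 on the saline arrays and 12.90, 13.19 and 13.41 on the TET arrays (difference 1.77, SE 0.16). Its partner Hspe1, which shares its promoter stretch, read 12.64, 12.55 and 12.59 on the saline arrays and 14.18, 14.19 and 14.27 on the TET arrays (difference 1.62, SE 0.081). Both genes were higher on every TET array than on any saline array. Hspa9, the mitochondrial HSP70, rose by 0.91 (0.46 as the mean over 5 probe sets), and Dnaja3, its HSP40 partner, fell by 0.84 (SE 0.11). Of the 20 mitochondrial chaperones, import proteins and proteases measured, 7 rose (35%) and 8 fell (40%, near the 41.3% of bright genes). After loess 9 rose and 3 fell, and 5 falls were called without saline replicate 1 or without TET replicate 1.

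Genes of the ATF4 response also rose. Of 22 measured, 15 rose (68.2%) and 1 fell (4.55%), against 23.6% and 41.3% of bright genes. The median was 0.73, and after loess it was 0.90 with 13 risen and 1 fallen. Trib3, a pseudokinase induced by ATF4, read 6.52, 6.40 and 6.13 on the saline arrays and 11.15, 10.77 and 10.70 on the TET arrays (difference 4.53, SE 0.20). Chac1, which degrades glutathione, read 5.70, 5.71 and 5.66 on the saline arrays and 9.90, 10.12 and 10.27 on the TET arrays. Both were low on every saline array and high on every TET array. Ddit3, the transcription factor CHOP, rose by 3.00 (SE 0.099, 7.99-fold), Asns, asparagine synthetase, by 2.50 (SE 0.12), and Cebpg, a partner of ATF4 on DNA, by 2.53 (SE 0.10). Ppp1r15a, the GADD34 subunit that returns eIF2α to its unphosphorylated form, read 10.82, 10.63 and 10.64 on the saline arrays and 12.46, 12.79 and 12.66 on the TET arrays, a rise of 1.94 (SE 0.14). Atf4 itself rose by 1.04 (SE 0.093). In a probe set of Atf4 whose type is not marked as binding relatives the rise was 2.14. As the mean over its 3 probe sets Cebpg rose by 1.25. The 1 member called as fallen, Jdp2, had probe sets called in both directions, and their mean was 0.08. The probe set of Jdp2 whose type is not marked as binding relatives rose by 1.16.

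Several sets of genes that ATF4 is known to serve moved in part. Of 12 genes of serine, one-carbon and proline synthesis 5 rose and 1 fell (8 and 1 after loess, 4 and 2 with arrays centred, and 2 fallen without TET replicate 3 or TMT replicate 2), among them Phgdh, the entry enzyme of serine synthesis, by 1.61 (SE 0.16), and Mthfd2, a mitochondrial folate enzyme, by 1.08 (SE 0.10). Of 22 amino acid transporters 9 rose and 6 fell (10 and 4 after loess, 7 and 7 with arrays centred). Slc1a4, a carrier of small neutral amino acids, rose by 2.86 (SE 0.16) and Slc38a2, the glutamine carrier SNAT2, by 2.78 (SE 0.12), while Slc43a2, a carrier of large neutral amino acids, fell by 1.89 (SE 0.12) and Slc7a7, a carrier of cationic amino acids, by 1.51 (SE 0.14). Of 19 cytosolic aminoacyl-tRNA synthetases 7 rose and 2 fell (9 and 0 after loess, 6 and 3 with arrays centred, and 1 fallen without any 1 of the saline arrays, TET replicate 3 or TMT replicate 1), with Aars, for alanine, up by 1.79 (SE 0.079) and Sars, for serine, up by 1.78 (SE 0.13). The other 10 synthetases did not pass. In the order given, 41.7%, 40.9% and 36.8% of these lists rose and 8.33%, 27.3% and 10.5% fell. The shares of bright genes were 23.6% and 41.3%.

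Among the kinases that act on eIF2α, Eif2ak3 (PERK, in the ER membrane) read 6.16, 6.49 and 6.28 on the saline arrays and 9.41, 9.19 and 9.74 on the TET arrays. Its difference was 3.14 (SE 0.14, adjusted p = 7.9e-08). All 3 probe sets of the gene rose. Eif2ak4 (GCN2, which senses uncharged tRNA) rose by 0.74 (SE 0.10). Eif2ak1 (HRI, the heme and mitochondrial stress kinase) did not pass (0.03, SE 0.10, adjusted p = 0.812).

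**Figure D3:**
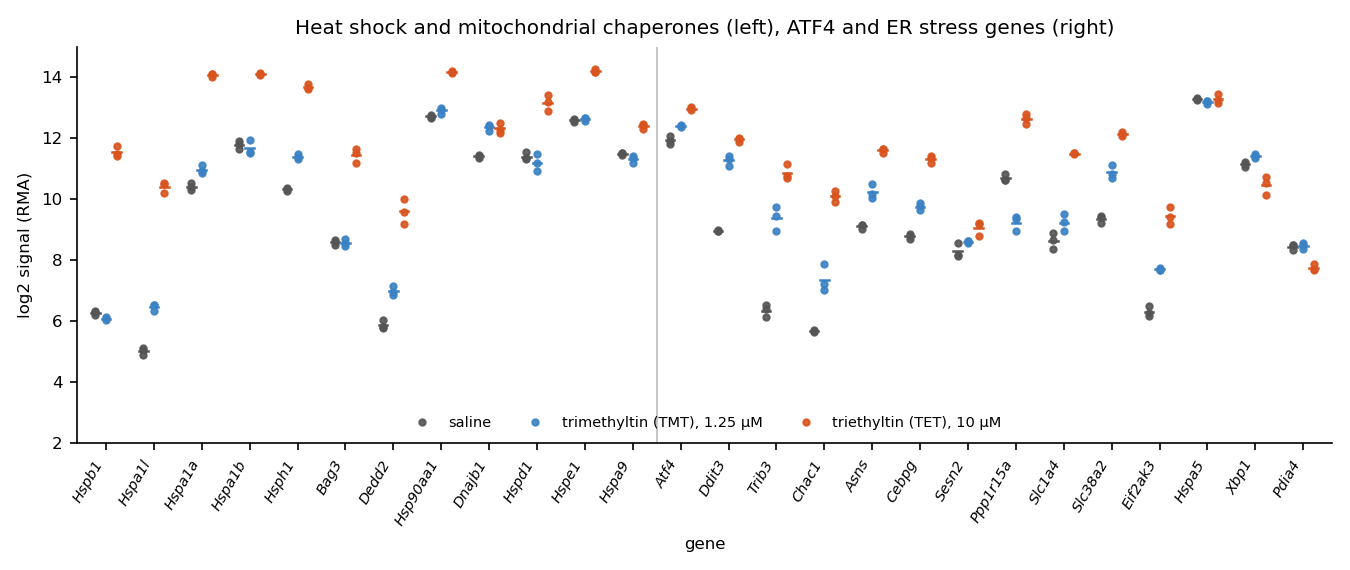
Log2 signal of cytosolic and mitochondrial chaperone genes (left of the line) and of ATF4 and ER stress genes (right). Points are arrays, 3 a group, and short bars are group means. Hspb1 averages 6.28 in saline and 11.56 under TET, whereas Hspa5 averages 13.29 and 13.29.

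The unfolded protein response of the ER, the arm that IRE1 and ATF6 drive to enlarge folding capacity, fell more often than it rose. Of 34 measured genes, 4 rose and 19 fell, with a median of -0.35. These are 11.8% and 55.9% of the list, against 23.6% and 41.3% of genes of at least median brightness. After loess 6 rose and 10 fell and the median was -0.15. Hspa5, the ER chaperone BiP, read 13.26, 13.29 and 13.33 on the saline arrays and 13.16, 13.26 and 13.45 on the TET arrays. The groups overlapped fully (difference -0.00, SE 0.095, adjusted p = 0.982), and the 95% interval of the difference was -0.21 to 0.21. Xbp1, the transcription factor of the IRE1 arm, fell by 0.68 (SE 0.14), and Derl2, of ER-associated degradation, by 1.16 (SE 0.18). Neither passed without moderation and with a spread per group (adjusted p = 0.114 and 0.0763). Pdia4, an oxidoreductase of the ER, fell by 0.70 (SE 0.097), and by 0.26 as the mean over 2 probe sets. The largest rises on the list were Eif2ak3 and Dnajb9, a BiP cofactor, which read 9.80, 9.98 and 9.82 on the saline arrays and 11.84, 11.95 and 11.84 on the TET arrays (difference 2.01, SE 0.099).

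Most LPS-induced mediators were lower under TET. Of 33 measured cytokines and chemokines, 3 rose (9.09%) and 23 fell (69.7%), against 23.6% and 41.3% of bright genes. The median was -0.49, and after loess it was -0.32 with 4 risen and 20 fallen. Tnf, tumour necrosis factor, read 12.94, 12.73 and 12.91 on the saline arrays and 10.21, 10.61 and 10.42 on the TET arrays. All TET arrays were at least 2 units below the lowest saline array, a fall of 2.44 (SE 0.14, 5.44-fold, adjusted p = 4.27e-07). Tnfsf9, the T cell costimulator 4-1BB ligand, fell by 2.49 (SE 0.092), and Ifnb1, interferon-β, by 1.66 (SE 0.18). Smaller falls were those of Ccl2, the monocyte attractant, by 0.82 (SE 0.12), Cxcl10, an attractant of T cells, by 0.68 (SE 0.088), and Cxcl1, an attractant of neutrophils, by 0.94 (SE 0.080). In a probe set whose type is not marked as binding relatives Cxcl1 fell by 1.58.

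Other mediators fell less or rose. Il6, interleukin-6, read 12.09, 12.05 and 11.99 on the saline arrays and 11.69, 11.57 and 11.53 on the TET arrays. The groups did not overlap, but the fall was 0.45 (SE 0.12, adjusted p = 0.0116), and it did not pass after loess (-0.27, adjusted p = 0.117) or when tested against a 1.2-fold change (adjusted p = 0.214). Il10, an anti-inflammatory cytokine, fell by 0.49 (adjusted p = 0.0248), a call lost after loess (-0.27, adjusted p = 0.193), after quantile normalization (adjusted p = 0.0567), without moderation and with a spread per group (0.0997), against a 1.2-fold change (0.226), with array weights (0.0506) and without saline replicate 2 or 3 or TET replicate 1 or 2. Osm, oncostatin M, a cytokine of the IL-6 family, read 7.26, 7.42 and 7.29 on the saline arrays and 9.74, 10.04 and 9.93 on the TET arrays. It rose by 2.58 (SE 0.11, 5.99-fold), and Csf3, the growth factor of neutrophils, by 1.66 (SE 0.24).

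In the deposited values no member of the NF-kB list rose. Of its 27 measured subunits, inhibitors and targets, limma's test called 0 risen, at an unadjusted p under 0.05 too, and 20 fallen (74.1%). The shares of bright genes were 23.6% and 41.3%. The list median was -0.50. After loess 3 rose and 18 fell, without TET replicate 3 1 rose, and without moderation and with a spread per group 0 rose and 18 fell. Nfkbia, the inhibitor IκBα that NF-kB induces as its own brake, read 14.23, 14.35 and 14.28 on the saline arrays and 13.20, 13.16 and 13.13 on the TET arrays. It fell by 1.12 (SE 0.085), all 5 of its probe sets fell, and no arrays of the groups overlapped. Nfkbie, a second inhibitor, fell by 1.94 (SE 0.12), Bcl3, a nuclear coactivator, by 1.70 (SE 0.19), and Tnfaip3, the ubiquitin-editing inhibitor A20, by 0.94 (SE 0.10). Nos2, inducible nitric oxide synthase, did not pass (0.38, SE 0.22, adjusted p = 0.178) but did after loess (0.64, adjusted p = 0.0418).

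Toll-like receptor genes split. Of 25 measured receptor and adaptor genes 8 rose (32%) and 14 fell (56%), against 23.6% and 41.3% of bright genes (7 and 10 after loess). Myd88, the shared adaptor, read 11.89, 11.80 and 11.98 on the saline arrays and 10.73, 10.58 and 10.61 on the TET arrays, a fall of 1.25 (SE 0.11). Tlr2, the lipoprotein receptor, fell by 1.73 (SE 0.18), its partner Tlr1 by 1.42 (SE 0.084), and Cd14, the LPS co-receptor, by 0.79 (SE 0.096). Ticam1, the adaptor TRIF of the interferon branch, read 8.33, 8.35 and 8.29 on the saline arrays and 9.85, 10.06 and 10.12 on the TET arrays, a rise of 1.68 (SE 0.10). Tlr4, the LPS receptor, rose by 0.86 (SE 0.099), and by 0.26 as the mean over 4 probe sets. The 2 adaptors thus lay on opposite sides of saline.

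Interferon response genes moved both ways. Of 39 measured, 11 rose and 11 fell (28.2% each), against 23.6% and 41.3% of bright genes. The median of 0.08 became -0.03 with arrays centred on their medians. The counts were 5 and 14 with arrays centred and 14 and 9 after loess. The number risen was 6 or 7 without any 1 of the saline arrays and 6 without TET replicate 2. Irf1, a transcription factor induced by LPS and interferons, read 13.28, 13.08 and 13.25 on the saline arrays and 11.01, 11.28 and 11.12 on the TET arrays, a fall of 2.06 (SE 0.12, adjusted p = 5.74e-07). Ifnar1, a chain of the interferon receptor, fell by 1.72 (SE 0.11), Mx2, an antiviral GTPase, by 1.12 (SE 0.097), while Gbp6, another GTPase, rose by 1.12 (SE 0.084) and Irf9, a subunit of the factor ISGF3, by 0.81 (SE 0.085). The letters GAAANNGAA of the interferon-stimulated element were found before 13 of 28 of these genes with a promoter, against 7.52% of all genes with a promoter. Of the 13, 2 were among the 7 that rose.

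The inflammasome list, whose products sense damage and mature interleukin-1β, held 10 risen and 11 fallen genes of 27. These are 37% and 40.7%, the latter near the 41.3% of bright genes. The counts were 11 and 8 after loess and 7 and 13 with arrays centred. Nlrp3, the sensor, read 11.81, 11.82 and 11.80 on the saline arrays and 11.00, 10.90 and 10.79 on the TET arrays. Pycard, the adaptor ASC, read 12.32, 12.30 and 12.30 on the saline arrays and 11.25, 11.34 and 11.42 on the TET arrays. Both were lower on every TET array, by 0.91 (SE 0.099) and 0.97 (SE 0.085). Il1b fell by 0.76 (SE 0.14), a call lost without moderation and with a spread per group (adjusted p = 0.0872). Casp1, caspase-1, did not pass (0.07, SE 0.089, 95% interval -0.13 to 0.27), and Gsdmd, the pore protein, fell by 0.53 with an adjusted p of 0.0341 that missed the threshold after loess (adjusted p = 0.132), after quantile normalization (adjusted p = 0.0629), without moderation and with a spread per group (0.145), against a 1.2-fold change (0.225) and without saline replicate 1, 2 or 3 or TET replicate 1. P2rx7, the ATP-gated channel upstream of NLRP3, read 8.98, 8.86 and 8.95 on the saline arrays and 11.77, 12.00 and 12.33 on the TET arrays. It rose by 3.11 (SE 0.17, 8.61-fold), and all 3 of its probe sets rose. Il18bp, which neutralises interleukin-18, rose by 0.86 (SE 0.092). Of 20 potassium channel and sodium pump genes, 11 of them bright, 6 rose (30%) and 5 fell (25%), near the 27.4% and 23.4% of all genes. After quantile normalization 2 rose and 6 fell. Kcnab2, a channel subunit, fell by 1.74 (SE 0.16), and Lrrc8d, of the volume-regulated anion channel, rose by 1.53 (SE 0.14).

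**Figure D4:**
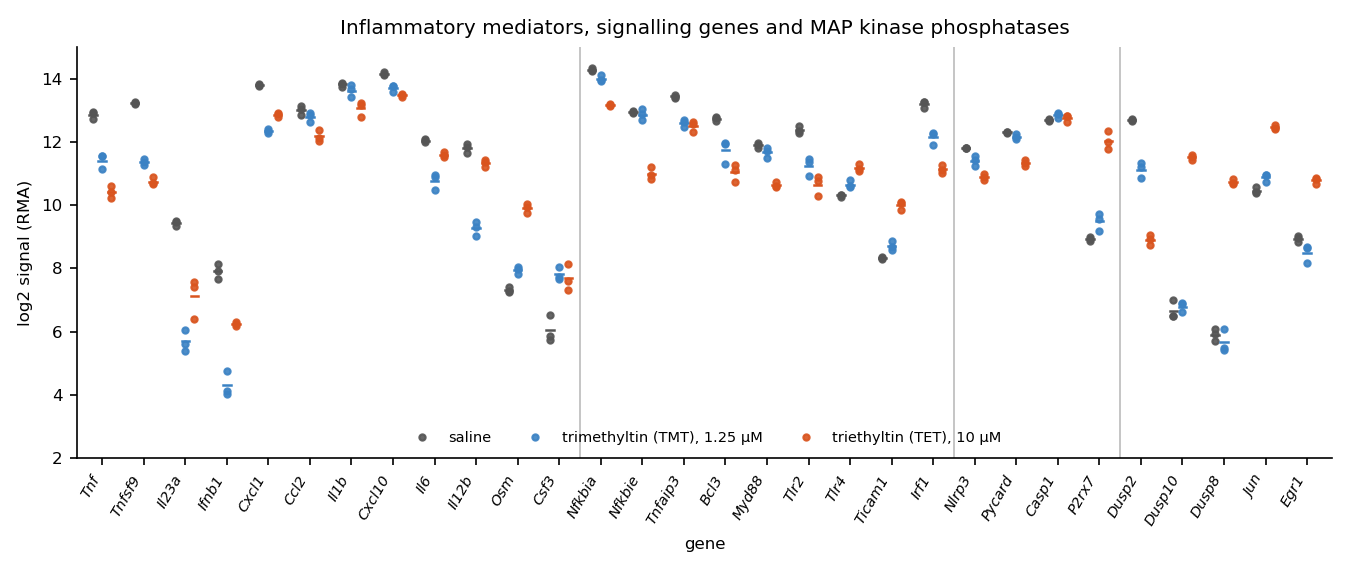
Log2 signal of cytokine genes, of NF-kB, Toll-like receptor and interferon signalling genes, of inflammasome genes and of MAP kinase phosphatases with early response genes, separated by lines. Points are arrays, 3 a group, and short bars are group means. Tnf averages 12.86 in saline and 10.41 under TET, and P2rx7 8.93 and 12.03.

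Immediate early genes and MAP kinase phosphatases rose together in large part. Of 40 measured, 25 rose (62.5%) and 9 fell (22.5%), against 23.6% and 41.3% of bright genes. The median was 0.68, and after loess it was 0.78 with 26 risen and 8 fallen. Dusp10, a phosphatase of the stress kinases JNK and p38, read 6.51, 6.99 and 6.49 on the saline arrays and 11.51, 11.58 and 11.43 on the TET arrays (difference 4.84, SE 0.14, adjusted p = 6.63e-09). Dusp4, an ERK phosphatase of the nucleus, rose by 3.17 (SE 0.10), and Dusp8, another stress kinase phosphatase, by 4.82 (SE 0.17; 2.76 as the mean over 3 probe sets). Dusp2 moved the other way, as given above. Jun, a subunit of AP-1, read 10.40, 10.57 and 10.38 on the saline arrays and 12.42, 12.54 and 12.43 on the TET arrays, a rise of 2.01 (SE 0.10). Egr1, a zinc finger factor, rose by 1.84 (SE 0.14), Fos by 0.77 (SE 0.10) and Gadd45a, a stress sensor of growth arrest, by 3.22 (SE 0.12). Junb, an AP-1 subunit too, fell by 1.05 (SE 0.16).

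Redox genes gave no common direction. Of 22 NRF2 and antioxidant targets 7 rose (31.8%) and 6 fell (27.3%), against 23.6% and 41.3% of bright genes. The median of -0.04 was 0.03 after quantile normalization and 0.10 after loess (8 and 4). Hmox1, heme oxygenase, read 10.27, 10.03 and 10.31 on the saline arrays and 12.66, 13.15 and 13.11 on the TET arrays. It was higher on every TET array and rose by 2.77 (SE 0.19, 6.83-fold). Srxn1, sulfiredoxin, rose by 1.11 (SE 0.12; 0.60 as the mean over 4 probe sets). Nqo1, a standard NRF2 target, did not pass (-0.10, SE 0.18, adjusted p = 0.656), and Gsr, glutathione reductase, fell by 0.83 (SE 0.096). Of 27 glutathione transferases, peroxidases and peroxiredoxins 6 rose and 11 fell (40.7%, near the 41.3% of bright genes; 6 and 6 after loess), with Gpx1, a glutathione peroxidase, down by 0.71 (SE 0.11). Of 20 lipoylation and dithiol enzymes, whose neighbouring thiols are a known binding site of trivalent arsenic, 3 rose and 9 fell (45%, near the 41.3% of bright genes; 3 and 4 after loess, 1 and 10 with arrays centred). Dbt, a lipoyl-bearing subunit of branched-chain ketoacid dehydrogenase, fell by 0.94 (SE 0.096), and the number risen was 1 without saline replicate 1 or saline replicate 3.

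The metallothionein Mt2 read alike in both groups, and several iron genes changed strongly. Mt2, which binds zinc and other metals, read 14.09, 14.16 and 14.12 on the saline arrays and 14.07, 14.17 and 14.10 on the TET arrays. Its arrays overlapped (difference -0.01, SE 0.084, 95% interval -0.20 to 0.18), and its signal lay near the highest value of any array (14.79). Other metallothioneins differed from it. Mt1 did not pass, but its value ran from -1.24 to 0.15 over the alternatives of the processing and it passed under some. Mt3 and Mt4 were called risen, and values of Mt3 under other processing are not given. Of 22 metallothionein and zinc transport genes 8 rose (36.4%) and 9 fell (40.9%, near the 41.3% of bright genes). Slc39a8, a zinc importer, rose by 0.81 (SE 0.11), and Slc30a7, a zinc carrier of the Golgi, fell by 1.03 (SE 0.12). Of 20 iron and heme genes 10 rose (50%) and 7 fell (35%), against 23.6% and 41.3% of bright genes. Slc40a1, the iron exporter ferroportin, read 6.33, 6.09 and 5.93 on the saline arrays and 9.96, 9.87 and 9.86 on the TET arrays. Spic, a factor of iron-recycling macrophages, rose by 3.49 (SE 0.21), and Slc40a1 by 3.78 (SE 0.15, 13.7-fold), with no overlap in either gene. Hamp, hepcidin, the hormone that removes ferroportin, rose by 2.48 (SE 0.25). Ireb2, the iron regulatory protein IRP2, fell by 1.62 (SE 0.12).

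Genes of lipid synthesis fell more often than they rose. Of 22 cholesterol genes 2 rose (9.09%) and 11 fell (50%), against 23.6% and 41.3% of all bright genes, with a median of -0.43 (5 and 10, median -0.23, after loess), and 1 rose without any 1 of the saline arrays or without TET replicate 2. Srebf2, the transcription factor of the pathway, read 9.61, 9.31 and 9.32 on the saline arrays and 7.76, 8.16 and 7.84 on the TET arrays, a fall of 1.49 (SE 0.18). Idi1, isopentenyl diphosphate isomerase, fell by 1.41 (SE 0.12) and Ebp, a sterol isomerase, by 1.49 (SE 0.15). Of 19 fatty acid genes, 14 of them bright, 3 rose and 13 fell (68.4%; 4 and 8 after loess), with Elovl6, an elongase, down by 1.51 (SE 0.19). Srebf1, which drives fatty acid synthesis, did not pass (-0.03, SE 0.15, adjusted p = 0.869).

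Some organotins with longer chains or rings, such as tributyltin and triphenyltin, are known ligands of the receptors RXR and PPARγ. Of 23 measured receptors and targets of RXR, PPAR and LXR, 11 rose (47.8%), 1 fell (4.35%) and 11 did not pass. The shares of bright genes were 23.6% and 41.3%. The list median was 0.31 (12 and 1, median 0.33, after loess, 8 and 2 with arrays centred, and 2 fallen without TMT replicate 2). Pparg, a receptor that directs lipid storage, read 9.23, 9.16 and 9.31 on the saline arrays and 10.93, 11.22 and 11.21 on the TET arrays. It was higher on every TET array, by 1.89 (SE 0.10). Ppard, its relative, rose by 2.70 (SE 0.17), Abcg1, a cholesterol exporter, by 1.87 (SE 0.12), and Plin2, a lipid droplet coat protein, by 0.78 (SE 0.077). Lpcat3, a phospholipid acyltransferase that LXR induces, was the member that fell, by 1.66 (SE 0.13). Nr1h3, the receptor LXRα, did not pass (-0.06, SE 0.26, adjusted p = 0.858).

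Hypoxia and TCA cycle genes held more falls than rises, as bright genes did in general. Of 23 HIF-1 response genes 5 rose (21.7%) and 13 fell (56.5%), against 23.6% and 41.3% of bright genes, with a median of -0.33 (6 and 10 after loess). Egln1, the prolyl hydroxylase PHD2 that marks HIF-1α for removal, read 10.45, 10.53 and 10.50 on the saline arrays and 9.02, 8.93 and 8.83 on the TET arrays, a fall of 1.57 (SE 0.086). Pdk1, which shuts pyruvate dehydrogenase, fell by 1.82 (SE 0.15), and Bhlhe40, a hypoxia- and stress-induced repressor, read 8.20, 8.57 and 8.21 on the saline arrays and 11.81, 11.67 and 11.93 on the TET arrays, a rise of 3.48 (SE 0.12). Among 20 genes of glycolysis and lactate 2 rose (10%) and 4 fell (20%), both below the shares of bright genes. After loess 3 rose and 2 fell, and 2 fell without any 1 of the saline arrays or without TET replicate 1. Hk2, an inducible hexokinase, fell by 1.56 (SE 0.12), and Hk3, the myeloid one, rose by 0.70 (SE 0.085).

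Of 21 TCA cycle genes limma's test called 0 risen, at an unadjusted p under 0.05 too, and 12 fallen (57.1%, against 41.3% of bright genes), with a median of -0.49. After loess 1 rose and 8 fell (median -0.22), and without moderation and with a spread per group 1 rose and 4 fell. Idh1, the cytosolic isocitrate dehydrogenase, fell by 1.45 (SE 0.10) and the mitochondrial Idh2 by 0.91 (SE 0.20). Of 42 respiratory chain genes 3 rose (7.14%) and 9 fell (21.4%), both below the 23.6% and 41.3% of bright genes. Their median of -0.08 was 0.04 after loess (7 and 4, and 0 and 15 with arrays centred). No more than 1 rose without any 1 of the saline arrays, TMT replicate 1 or TMT replicate 3. Cyc1, cytochrome c1, fell by 0.73 (SE 0.093). Of 16 ATP synthase genes, the enzyme that organotins inhibit, 0 rose and 2 fell as deposited (12.5%, below the 41.3% of bright genes). At an unadjusted p under 0.05 in limma's test the counts were 1 and 2. After loess 1 rose and 0 fell, and 0 or 1 fell without any 1 of the saline arrays or TET replicate 2. Of 71 mitochondrial ribosomal protein genes 5 rose and 29 fell (40.8%, near the 41.3% of bright genes), and after loess the counts were 14 and 15 and the median turned from -0.16 to 0.06. Mrpl28 fell by 0.87 (SE 0.091) and Mrps17 by 0.85 (SE 0.090).

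Few cytosolic ribosomal protein genes passed. Of 41 measured, 39 of them bright, limma's test called 2 risen and 0 fallen (4 and 0 at an unadjusted p under 0.05). Their median was 0.09, as over all genes, whereas bright genes had a median of -0.19 and 41.3% of them fell. With arrays centred the median was -0.02 with 0 risen and 1 fallen, after quantile normalization 7 rose, and without moderation and with a spread per group 10. Without 1 array the number risen was 0 or 1 (each of the saline arrays, TET replicate 2, TMT replicates 1 and 3) or 4 (TMT replicate 2), and without TET replicate 1 1 gene fell. Of 35 genes that build ribosomes 3 rose and 16 fell (45.7%, against 41.3% of bright genes), with a median of -0.34 (8 and 13, median -0.10, after loess). Rrn3, the factor that starts RNA polymerase I, read 9.46, 9.27 and 9.22 on the saline arrays and 7.45, 7.40 and 7.81 on the TET arrays, a fall of 1.76 (SE 0.19), and Gar1, of the snoRNPs that modify ribosomal RNA, fell by 1.29 (SE 0.095). Gnl3, nucleostemin, rose by 1.40 (SE 0.12). Of 33 translation factor genes 8 rose (24.2%) and 6 fell (18.2%), against 23.6% and 41.3% of bright genes (6 and 10 with arrays centred). Of 44 proteasome genes 11 rose (25%) and 9 fell (20.5%), against the same shares of bright genes. The counts were 18 and 4 after loess and 7 and 12 with arrays centred, and 7 rose without saline replicate 3 or TET replicate 2. Psmd8, a subunit of the regulatory cap, rose by 0.85 (SE 0.13).

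RNA processing genes split by member. Of 31 splicing genes 7 rose (22.6%) and 15 fell (48.4%), near the shares of bright genes (9 and 12 after loess). Clk4, a kinase of splicing factors, read 9.27, 9.18 and 9.36 on the saline arrays and 11.25, 11.39 and 11.54 on the TET arrays, a rise of 2.12 (SE 0.11). Srsf5 fell by 1.72 (SE 0.17) and Srsf6 by 1.32 (SE 0.12), and Srsf11, a protein of the same family, rose by 1.38 (SE 0.16). Of 29 mRNA decay genes 9 rose (31%) and 11 fell (37.9%), against 23.6% and 41.3% of bright genes. After loess 10 rose and 7 fell and the median of -0.21 became 0.05, and with arrays centred 7 rose and 15 fell. Zfp36l1 and Zfp36l2, proteins that destabilise cytokine mRNA, rose by 1.66 (SE 0.12) and 1.62 (SE 0.15), and Zc3h12a, the RNase regnase-1, fell by 0.79 (SE 0.10).

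Cell cycle genes moved both ways, with more falls than rises among those of G1. Of 23 G1 cyclins, their kinases and inhibitors 5 rose and 13 fell (56.5%, against 41.3% of bright genes), with a median of -0.53, beside the rise of Ccnf already given. Cdk6, a G1 kinase, read 11.82, 11.75 and 11.83 on the saline arrays and 9.70, 9.98 and 10.05 on the TET arrays, a fall of 1.89 (SE 0.10), while Cdk4, its relative, rose by 1.15 (SE 0.14). Cdkn1a, the inhibitor p21, fell by 0.76 (SE 0.095). Of 43 replication and mitosis genes, 30 of them bright, 8 rose (18.6%) and 9 fell (20.9%), both below the 23.6% and 41.3% of bright genes. Mki67, a mark of cycling cells, fell by 1.05 (SE 0.097), and Cdc6, a licensing factor, rose by 1.91 (SE 0.25). Of 15 tubulins, 9 of them bright, 7 rose (46.7%) and 3 fell (20%), against 27.4% and 23.4% of all genes. Tubb2b rose by 2.34 (SE 0.13) and Tuba1a fell by 1.23 (SE 0.11).

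Death regulators moved both ways. Of 22 p53 targets 10 rose (45.5%) and 7 fell (31.8%), against 23.6% and 41.3% of bright genes. Of 24 BCL2 family and death genes 5 rose (20.8%) and 10 fell (41.7%), near those shares. Pmaip1, the BH3-only protein NOXA that ATF4 and p53 induce, read 6.29, 6.65 and 6.74 on the saline arrays and 9.79, 10.20 and 9.83 on the TET arrays, a rise of 3.38 (SE 0.14, 10.4-fold). Bbc3, the BH3-only protein PUMA, rose by 0.61 (SE 0.094). Birc2, the ubiquitin ligase cIAP1, read 11.14, 11.35 and 11.33 on the saline arrays and 8.80, 8.73 and 9.17 on the TET arrays, and Apaf1, the core of the apoptosome, fell by 1.25 (SE 0.097). The groups were apart in each of these genes, and Birc2 fell by 2.37 (SE 0.14). Mcl1, a short-lived survival protein, did not pass (-0.05, SE 0.078, 95% interval -0.23 to 0.12).

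Autophagy and lysosomal signalling genes held some of the strongest rises. Of 30 autophagy genes 14 rose (46.7%) and 9 fell (30%), against 23.6% and 41.3% of bright genes. The median was 0.28, and after loess 16 rose and 7 fell. Nbr1, a cargo receptor, read 9.48, 9.64 and 9.62 on the saline arrays and 12.41, 12.54 and 12.58 on the TET arrays. Atg2a, which transfers lipid to the growing membrane, rose by 3.17 (SE 0.19), Atg13, of the starting kinase complex, by 3.05 (SE 0.13), Nbr1 by 2.93 (SE 0.089) and Gabarapl1, a membrane tag, by 2.14 (SE 0.15). The groups did not overlap in any of the 4. Ulk2, of the same starting complex family, fell by 1.13 (SE 0.14).

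Of 39 genes of the TFEB family and the lysosome 10 rose and 10 fell (9 and 14 with arrays centred). The 25.6% risen was near the 23.6% of bright genes, and the 25.6% fallen was below their 41.3%. Flcn, folliculin, which with its partners controls TFEB and RagC/D at the lysosome, read 7.91, 8.17 and 7.93 on the saline arrays and 12.07, 12.13 and 12.32 on the TET arrays, a rise of 4.17 (SE 0.11; 2.54 as the mean over 3 probe sets). Its partners Fnip1 and Fnip2 rose by 3.26 (SE 0.095) and 3.85 (SE 0.16), Rragd, encoding RagD, by 2.47 (SE 0.18), and Tfeb itself by 2.23 (SE 0.16). Mitf, a relative of TFEB, fell by 1.04 (SE 0.080), and Lamp1, a lysosomal membrane protein, did not pass (-0.12, SE 0.10). Of 16 genes of the V-ATPase, the proton pump of the lysosome, 8 rose (50%) and 3 fell (18.8%), against the same shares of bright genes. After loess 10 rose and 1 fell. Atp6v1h rose by 1.65 (SE 0.11).

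Macrophage identity genes fell about as often as other bright genes. Of 31 measured, all bright, 5 rose (16.1%, against 23.6%) and 13 fell (41.9%, against 41.3%), or 7 and 10 after loess, and the number fallen was 5 without saline replicate 1 and 6 without saline replicate 3 or TET replicate 1. Cx3cr1, the fractalkine receptor, read 8.33, 8.28 and 8.43 on the saline arrays and 5.47, 5.76 and 5.76 on the TET arrays. It fell by 2.68 (SE 0.12) with no overlap, and Irf5, a factor of inflammatory macrophages, fell by 1.07 (SE 0.17). Csf1r fell by 0.23 (adjusted p = 0.0241), a call lost without saline replicate 1, 2 or 3, with the replicate block (adjusted p = 0.0525) and against a 1.2-fold change (0.987), and by 0.57 as the mean over its probe sets. Itgam (CD11b), Cd68 and Spi1 did not pass (differences -0.21, 0.16 and -0.12). Cebpa, a myeloid factor, rose by 1.42 (SE 0.13).

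Of 20 alternative activation genes 5 rose (25%) and 7 fell (35%), against 23.6% and 41.3% of bright genes. Klf4 rose by 2.56 (SE 0.19) and Socs2 by 2.76 (SE 0.19), and Ccl22 fell by 1.52 (SE 0.17). Of 16 MHC class II and costimulation genes 1 rose (6.25%) and 8 fell (50%, against 41.3% of bright genes), and 2 rose without TET replicate 3. H2-Aa, a class II chain, read 11.38, 11.48 and 11.32 on the saline arrays and 10.71, 10.40 and 10.57 on the TET arrays, a fall of 0.83 (SE 0.11), and H2-Eb1, another, fell by 1.18 (SE 0.097). The 1 that rose was Cd86, a costimulator of T cells, which read 9.96, 9.91 and 9.78 on the saline arrays and 11.76, 11.79 and 11.68 on the TET arrays (difference 1.86, SE 0.10). Of 23 integrins and adhesion genes 3 rose and 12 fell (52.2%, against 41.3% of bright genes; 3 and 9 after loess), with Itga6 down by 1.64 (SE 0.10). Of 18 prostaglandin and leukotriene genes 2 rose (11.1%) and 7 fell (38.9%, near the 41.3% of bright genes). Hpgd, which inactivates prostaglandins, fell by 2.34 (SE 0.16), and Hpgds, a prostaglandin D synthase, rose by 1.81 (SE 0.10). Of 9 drug-exporting ABC transporters 2 rose (22.2%) and 4 fell (44.4%), near the 23.6% and 41.3% of bright genes. Abcc1 fell by 0.97 (SE 0.077).

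**Figure D5:**
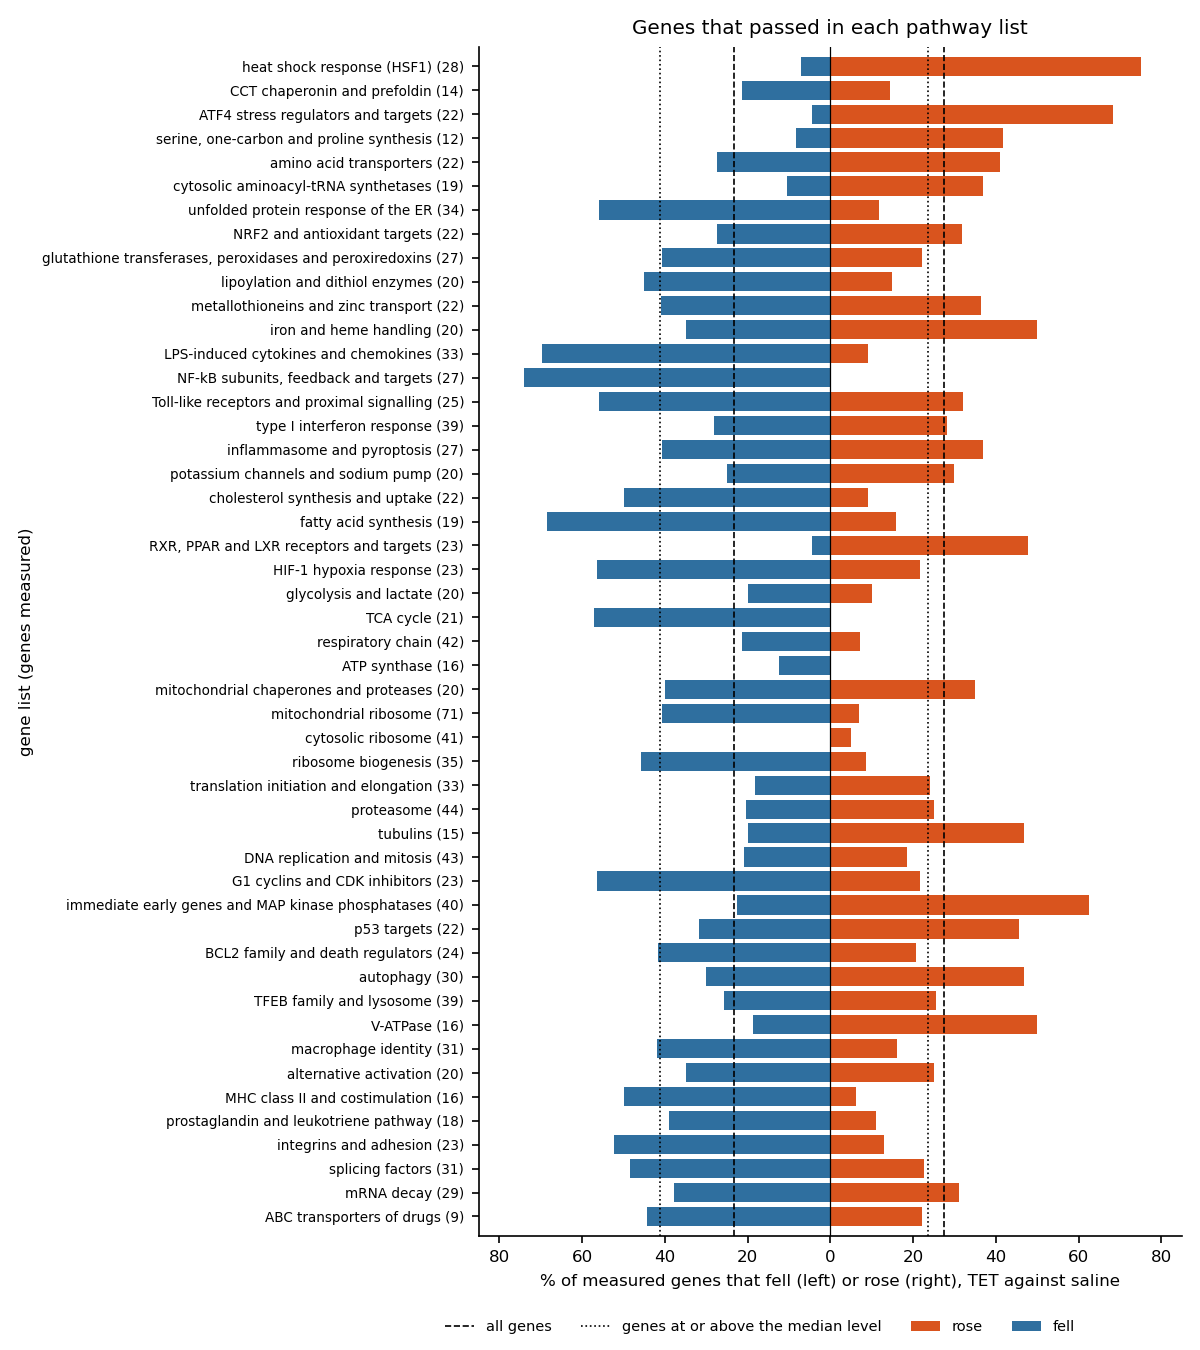
Percent of the measured genes of each pathway list that fell (left) or rose (right) under TET, with the number measured in brackets. Dashed lines mark the shares over all genes (27.4% risen, 23.4% fallen) and dotted lines those over genes at or above the median level (23.6% and 41.3%). The heat shock list has 75% risen and the NF-kB list 0.

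Markers of 19 other cell types were read as well, since a culture could hold them. Of 11 neutrophil genes 1 rose, 4 fell (36.4%) and 6 did not pass. Their median level in saline was 7.73, and 29.7% to 45.5% of all genes fell in the bins from 6.74 to 8.85. The number risen was 0 without saline replicate 3 or TET replicate 2, and 2 without TET replicate 3 or TMT replicate 2. S100a9, a granulocyte calcium-binding protein, fell by 1.66 (SE 0.15), and Ngp, a granule protein, by 1.30 (SE 0.15). Of 8 NK cell markers limma's test called 0, and 2 were higher at an unadjusted p under 0.05. Dim genes in general often rose, with 36.8% to 42.1% risen in the 3 bins from 4.71 to 6.74 in saline, and most marker lists lie near or within that range. The share risen was highest in the lists of endothelium (6 of 10 risen), erythroid (4 of 7), T cell (5 of 9), fibroblast and stroma (6 of 12), skeletal and heart muscle (10 of 19), epithelium (8 of 16) and testis (7 of 14), with 0 or 1 fallen in each, and it was lower in others such as liver (4 of 13) and mast cell and basophil (1 of 10). Muscle had 6 risen without saline replicate 3, erythroid 2 and epithelium 5 without saline replicate 1, and mast cell and basophil 0 without saline replicate 1 or 2 and 3 without TET replicate 1. After loess, in the same order, 4, 1, 3, 4, 3, 4 and 5 genes of the first 7 lists rose. In saline the mean level of a list lay between 5.66 and 5.73 for T cell markers and between 5.34 and 5.38 for epithelium. Under TET these were 6.06 to 6.14 and 5.74 to 5.75.

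Single markers of other cell types rose steeply. Fap, a protease of activated fibroblasts, read 6.71, 6.84 and 6.75 on the saline arrays and 11.18, 10.93 and 10.79 on the TET arrays, an 18.4-fold rise. Vwf, von Willebrand factor of endothelium and platelets, rose by 2.63 (SE 0.13), and Stmn4, a stathmin of neurons, by 2.69 (SE 0.095). The medians of their lists were 0.38, 0.42 and 0.09, the last of which was below 0 under each of the 3 scalings (neuron, 6 of 23 risen and 1 fallen). Whether other cells took part in these rises was not tested.

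Set directly against TMT at its lower dose, TET differed in 9425 genes (51.8%), with 5115 higher (28.1%) and 4310 lower (23.7%), or 3782 and 4847 with arrays centred. With bright genes tested alone, 26% were higher and 42.9% lower, and the list counts below stand against these shares. The doses differ, so the test compares these exposures and not the compounds at a matched dose, and both share the saline arrays. Of the 28 heat shock genes 19 were higher under TET than under TMT and 1 was lower. Hspb1 read 6.03, 6.09 and 6.13 on the TMT arrays and 11.49, 11.43 and 11.77 on the TET arrays, and the difference was 5.48 (SE 0.10, adjusted p = 1.01e-09). Hspe1 differed by 1.57 (SE 0.081), and both mitochondrial chaperonin genes lay near saline under TMT (-0.19 for Hspd1 and 0.05 for Hspe1). Dnajb1 stood at a like distance from saline under both, 0.95 under TMT and 0.91 under TET, and the test between them did not pass (-0.04, 95% interval -0.28 to 0.20, adjusted p = 0.751). As the mean over its 2 probe sets it was higher under TET by 0.36 (adjusted p = 0.0122).

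Inflammatory genes did not follow 1 pattern between the organotins. Of the 33 cytokine and chemokine genes 14 were higher and 9 lower under TET than under TMT. The shares over bright genes tested alone were 26% higher and 42.9% lower. Ifnb1 lay 3.60 below saline under TMT and 1.66 below under TET, a difference between them of 1.94 (SE 0.18, adjusted p = 1.24e-05; 0.0534 without moderation and with a spread per group). Tnf went the other way, with TET lower than TMT by 1.00 (SE 0.14, adjusted p = 0.000193). Of 34 genes of the ER unfolded protein response 4 were higher and 20 lower under TET than under TMT, against the same shares. The counts were 7 and 14 after loess and 2 and 5 without moderation and with a spread per group. Of 43 replication and mitosis genes 27 were higher (29 after loess, 14 without moderation), and of 41 cytosolic ribosomal genes 27 (17 with arrays centred, 16 without moderation). Hmox1 was 2.47 above saline under TMT and 2.77 under TET, and they did not differ beyond the spread (0.30, 95% interval -0.13 to 0.73, adjusted p = 0.213). Pparg lay on opposite sides of saline, -1.62 under TMT and 1.89 under TET, with a difference of 3.51 (SE 0.10, adjusted p = 1.26e-08). Hif1a, a subunit of HIF-1, did so too, 0.40 under TMT and -0.66 under TET. In a probe set of Hif1a whose type is not marked as binding relatives the TET value was -1.38.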

How the data were processed

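Gene expression was measured on whole-genome Affymetrix mouse arrays in 3 samples for each of 3 groups. The authors deposited log2 values after RMA (background correction, quantile normalization and summary of probes), made with affy per the submitters' processing notes, and the version was not given in the sources used here. Of 45037 probe sets, 34945 name 1 gene in the platform annotation, 932 several and 9160 none. The probe set with the highest mean over all 9 arrays was kept for each of 18193 genes, of which 9010 have several, and 3953 were read by a probe set whose type says it may bind related transcripts. Those types, named by the endings _x_at, _s_at and _a_at, include probe sets for alternative transcripts of the same gene. Group labels come from the sample titles. Doses come from the series design.

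The deposited values went into limma 3.58.1 in R 4.3.3, as a model holding a mean for each of the 3 groups, with empirical Bayes moderation, two-sided tests and Benjamini-Hochberg adjustment over all genes. A gene passed at an adjusted p under 0.05. The precision is set by how few arrays there are, with 6 residual degrees of freedom, and the median SE of a difference was 0.121. The procedure was run on simulated data in which few genes changed and all groups had the same spread. The TET arrays spread more and many genes passed, so that run cannot show how the test behaves on these data. Figures were drawn with matplotlib 3.10.9.

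Gene lists (49 pathway lists and 19 lists of other cell types) hold 1576 distinct genes, of which 1442 were measured. The members and the lists were chosen with earlier results of these data known. Genes are named as the 15 largest rises and 15 largest falls (groups apart, higher mean at least the median level), key genes of a list, and up to 4 rises and 4 falls from each list. Lists are described by counts and medians and were not tested as sets. Same-numbered saline and TET arrays did not deviate together (correlations of -0.125, -0.064 and -0.036). For same-numbered saline and TMT arrays the correlations were 0.16, 0.31 and 0.02, and for unlike-numbered ones -0.30 to 0.26. With 3 arrays a group these values cannot decide whether the numbers pair the samples, and the model holds no pairing. Promoters were taken from RefSeq tables for GRCm38.p6, 18009 in all. No batch is named in the labels.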

Additional observations from a re-analysis of the deposited data

How the results depend on the processing

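TET against saline passed in 9247 genes (4982 risen, 4265 fallen). The count was 6066 with bright genes alone (2204 risen), 3927 without moderation and with a spread per group (2037 and 1890), 5143 when tested against a 1.2-fold change (2362 and 2781), 5383 when a 1.5-fold change was also asked for (2462 risen), and 17165 over all probe sets that name 1 gene (8210 and 8955). Most of these settings test other numbers of features or ask for a larger change. The setting without moderation tests the same 18193 genes against no change, but with neither the shared spread nor its moderation. Otherwise the cause was not tested. TET against TMT passed in 9425 genes, and in 6270 with bright genes alone (2366 higher), 3545 without moderation (1783 and 1762), 5374 against a 1.2-fold change (2477 higher), 5540 with a 1.5-fold change (2542 higher) and 17214 over all probe sets (8623 and 8591). Leaving out 1 array gave 7540 to 9370 genes against saline (3865 to 4987 risen, 3675 to 4383 fallen) and 8006 to 9231 against TMT (4131 to 5119 higher, 3836 to 4320 lower). With the replicate block 8956 genes passed (4757 and 4199), and 9118 against TMT (4895 and 4223). Fkbp4 turned to 0.88 and Jdp2 to 1.16 when probe sets that may bind related transcripts were left out, and Jdp2 to 0.081 as the mean over its probe sets. Of 526 genes that the naming rule gives, 485 passed, and 268 of these passed under every alternative that gave a value. Of 41 that did not pass, 18 passed under some alternative. Of 2992 counts of risen or fallen genes by list and setting, 438 moved by more than 1.5 times. Most such lists hold few called genes. Values near the low end of the range have no measured background, so depth of signal limits what can be said of dim genes.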

Other observations

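Genes that rose steeply under TET often had a neighbour on the same chromosome that rose at least 2-fold too. Over all genes with a measured neighbour, the next gene on the 5′ side rose at least 2-fold in 650 of 9992 (6.51%) and the next gene on the 3′ side in 657 of 9820 (6.69%). For genes that rose at least 8-fold the counts were 19 of 77 (24.7%) and 18 of 74 (24.3%). A pair in which both genes rose at least 8-fold can be counted from each of them, as Hspa1l and Hspa1a are. The counts of the 5′ and 3′ sides are therefore not separate sets of pairs. Beside genes that fell at least 2-fold the shares were 4.14% and 3.16%. The pairs named here were chosen after their values were seen, and for Tedc2, Phldb2, Retsat, Rhov, Vps18 and Harbi1 values under other processing are not given. Hspa1l (5.39) lies beside Hspa1a (3.67), Ccnf (5.85) beside Tedc2 (3.18), and Plcxd2 (5.71) beside Phldb2 (3.57). Elmod3 (5.09) lies beside Retsat (1.93), Rhov (4.66) beside Vps18 (2.81), and Atg13 (3.05) beside Harbi1 (2.18), all as log2 differences. The arrays do not tell the strand from which a transcript started, and a cause was not tested.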
